A study of Drosophila melanogaster with 16 samples.

Results

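The sites described here are the positions at which an adenosine with a guanosine directly on its 5′ side was read as guanosine in RNA, called 5′ G sites below. They were taken from the bulk variant calls of a Drosophila melanogaster study by 4 conditions, namely a single-base A-to-G change in the direction of the transcript, a call quality above 250, an alternate share over the 14 bulk samples under 0.95 and a guanosine as the 5′ neighbour. This left 1620 5′ G sites in 1138 genes out of 32873 A-to-G sites in 5003 genes. The other 31253 sites, with a thymidine, adenosine or cytidine on the 5′ side, served for comparison.

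The cells expressed FMR1-ADARcd-V5, a fusion of the RNA-binding protein FMR1 to the catalytic domain of ADAR. This domain carried the E488Q mutation in both the S2 and the fly construct. Whether the mutation changes the preference for neighbouring bases was not tested. S2 cells, a line of hemocyte-like cells from embryos, carried it in a stably transfected clone under the copper-inducible metallothionein promoter. Induced S2 cells received 1 mM copper sulfate for 4 h and then either Schneider's medium or 0.5 mM sodium arsenite in that medium for 4 h, with 3 replicates of each. The uninduced S2 sample was kept in Schneider's medium without copper for both periods. Brains were those of L3 larvae in which elav-GeneSwitch-Gal4, a neuronal driver switched on by RU486, drove a UAS transgene of the fusion joined to EGFP. Cells dissociated from 20 brains, neurons and glia together, were kept for 4 h in Schneider's or in 0.5 mM arsenite, again with 3 replicates of each and 1 sample without RU486. Each S2 sample comes from 1 clone, and the fusion is under different promoters in the S2 cells and brains. Tissue, culture and promoter therefore cannot be told apart. The study describes the S2 replicates as triplicate experiments and those of brains as biological triplicates, and p-values measure the spread between these samples. Arsenite makes cells assemble stress granules, and the question behind the comparison was which RNAs are edited more when the fusion gathers there.

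ADAR enzymes deaminate adenosine to inosine in double-stranded RNA, and inosine is read as guanosine after reverse transcription. The enzyme flips the target base out of the helix, and the bases on both sides affect how well it does so. A guanosine on the 5′ side is known as the least favoured neighbour and a guanosine on the 3′ side as a favoured one. In flies the endogenous Adar gene edits many transcripts of neurons, while the fusion is directed to RNAs by FMR1.

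A 5′ G site can have any of 4 bases on its 3′ side, and the triplets are shown because they are what defines the set, with the edited adenosine in capitals:
guanosine on the 3′ side: gAg
cytidine on the 3′ side: gAc
thymidine on the 3′ side: gAt
adenosine on the 3′ side: gAa
Of the 1620 sites, 989 (61.0%) had the triplet gAg, 311 (19.2%) gAc, 163 (10.1%) gAt and 157 (9.69%) gAa. Among the 16 possible triplets, gAa, gAt and gAc were the 3 with the fewest sites, while gAg ranked 7 from the bottom. The share with a guanosine on the 3′ side was 61.0% with a 5′ guanosine, 60.3% with a 5′ cytidine, 57.3% with a 5′ adenosine and 34.4% with a 5′ thymidine.

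The 5′ G sites made up 4.93% of the A-to-G sites (95% exact Clopper-Pearson interval 4.70 to 5.17). The intervals on shares here cover counting error only. Thymidine was the 5′ neighbour at 36.2%, adenosine at 30.1% and cytidine at 28.8%. The share with a 5′ guanosine was lower among calls of higher quality. It was 9.65% of the 2073 A-to-G records with a call quality of 250 or lower, 4.73% above 500, 4.51% above 1000 and 4.08% above 2000. Other changes of adenosine in the same table had a different neighbour. A 5′ guanosine stood at 60.9% of the 24803 A-to-C sites and at 20.1% of the 293 A-to-T sites that met the same limits. In the separate variant table of single S2 cells, 4563 of 92786 A-to-G sites, 4.92% (4.78 to 5.06), had a 5′ guanosine. The share of guanosine before all adenosines of the exons was not analysed here.

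Most 5′ G sites lay in coding sequence. Of the 1620 sites, 1459 (90.1%) were coding, 88 (5.43%) lay in a 3′ UTR and 48 (2.96%) in a 5′ UTR, by the Ensembl annotation of BDGP6. For other sites the shares were 88.0%, 5.93% and 4.24%. Within coding sequence the 5′ G sites fell on the second base of the codon more often than other sites did, 62.6% (60.1 to 65.1) against 44.4% (43.8 to 45.0), and on the third base less often, 13.1% against 24.7%. The triplet gAg was at codon position 2 in 635 of 892 coding cases, which makes a glutamate codon (GAG) a glycine codon (GGG). Glutamate codons held 683 (46.8%) and aspartate codons 231 (15.8%) of the coding 5′ G sites. The share of gAg at codon position 2, 71.2%, was the same to this precision as that of aAg, the triplet of the lysine codon AAG, at 71.2% of 5149 sites, while it was 52.7% of 5241 for cAg and 3.00% of 3265 for tAg. No test was made of these shares, since neighbouring sites lie in the same transcripts.

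The 5′ G sites stood close to other edited positions. The nearest other A-to-G site of the same gene was at a median of 68.5 bases from a 5′ G site and 77.0 bases from another site, and 401 (24.8%) of the 5′ G sites had one within 20 bases against 20.7% of other sites. In 54 genes the 5′ G site was the single edited position. The median 5′ G site had 123 reads over the 14 samples and a call quality of 2186, and other sites had 116 reads and a quality of 3116. Just above the quality limit, the 39 5′ G sites between 250 and 300 had a median of 2 edited reads. Just below it, the 36 between 200 and 250 also had 2. The 6 5′ G sites just under the limit of the alternate share had a median of 88.5% guanosine, and the 6 above it 100%.

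Reads at A-to-G sites numbered 247153 to 458176 per sample, of which 12644 to 22614 lay at 5′ G sites. Depth per position was low, with a median of 5 to 11 reads per 5′ G site and sample, so that 444 of the 1620 sites in S2 cells and 288 in brains had at least 10 reads in all 7 samples of the tissue. Summed over each list, marker genes followed the labels. Reads at variant positions of 7 neuronal genes (elav, nSyb, brp and others) numbered 4909 to 7380 per brain sample and 204 to 310 per S2 sample, those of 7 glial genes 638 to 1087 and 69 to 183, and those of hemocyte-like genes such as Pxn, srp and Col4a1 159 to 356 and 3711 to 4589. Single genes did not all do so: the glial gene moody had 147 reads over the S2 samples and 96 over the brain samples, and Ppn, a gene of the hemocyte-like list, 4 and 3. The hemocyte genes Hml and He had no variant position. In these bulk samples a lower edited share in each cell and fewer cells with the fusion cannot be told apart.

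A small group of 5′ G sites carried guanosine without induction. In uninduced S2 cells 8 of 790 5′ G sites with at least 10 reads, 1.01% (0.438 to 1.99), were read as guanosine at 30% or more, against 26 of 14445 other sites, 0.180% (0.118 to 0.264). In uninduced brains these numbers were 14 of 719, 1.95% (1.07 to 3.25), and 54 of 12733, 0.424% (0.319 to 0.553). Sites with any edited read in the uninduced sample were 32 of 790 (4.05%) against 5.73% of other sites in S2 cells and 49 of 719 (6.82%) against 6.09% in brains.

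The 8 S2 sites were guanosine in nearly every S2 read and in no brain read. They lay in mbm, da, CG5355, Nup160, Dp1, Klp61F, Dip-C and cic, and over the 7 S2 samples 791 of 792 reads had guanosine, while 0 of 357 brain reads did. In Dp1 (chromosome 2R, position 18417093), which encodes a protein that binds dodeca-satellite DNA, the uninduced S2 sample had 22 of 22 reads, the Schneider's samples 23 of 23, 16 of 16 and 29 of 29, and the arsenite samples 28 of 28, 21 of 21 and 31 of 31. In da, the gene of the helix-loop-helix factor Daughterless (2L, position 10392306, gAa), and in CG5355 (2L, position 10412330, gAt) all reads of the 7 S2 samples were guanosine too. In single S2 cells, 7 of these 8 sites had reads and 968 of 972 were guanosine, 99.6% (98.9 to 99.9). Whether these positions are guanosine in the DNA of this clone was not tested.

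The 14 brain sites were more varied, at 40% to 100% in the uninduced sample. They lay in lid, Tango1, CG14764, CR45926, smg, CG6024, CycT, CG14186, hth, Pp1-87B, roX1, RpL7A, mt:ND2 and mt:CoI. The highest number of guanosine reads was in mt:CoI, the mitochondrial gene of cytochrome oxidase subunit I (position 1836 of the mitochondrial genome, gAa). There 101 of 102 uninduced reads and every read of the 6 induced brain samples were guanosine, against 0 of 29 reads in uninduced S2 cells and 2 of 142 in arsenite-treated ones. In roX1, the X-linked non-coding RNA of dosage compensation (X, position 3861501, gAa), guanosine took 49 of 57 uninduced reads, 125 of 145 in Schneider's and 121 of 156 in arsenite. In CG6024 (3L, position 11737027, gAc) it took 30 of 65, 63 of 175 and 54 of 137. With reads pooled by condition, the medians were 71.1% uninduced, 64.9% in Schneider's and 69.7% in arsenite, but single sites went both ways. Against the uninduced sample, 10 of the 14 were lower and 4 higher in Schneider's, and 8 were lower and 4 higher in arsenite. CR45926 went from 73.7% uninduced to 54.3% and 43.3%, and lid, a histone demethylase gene, from 63.0% to 53.2% and 44.7%. CG14764 went from 4 of 10 reads to 64.7% and 48.4%. The sites in smg and CycT were also guanosine in all S2 reads, bulk and single cells. Whether any of the 14 positions is guanosine in the DNA of these larvae was not tested.

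**Figure D1:**
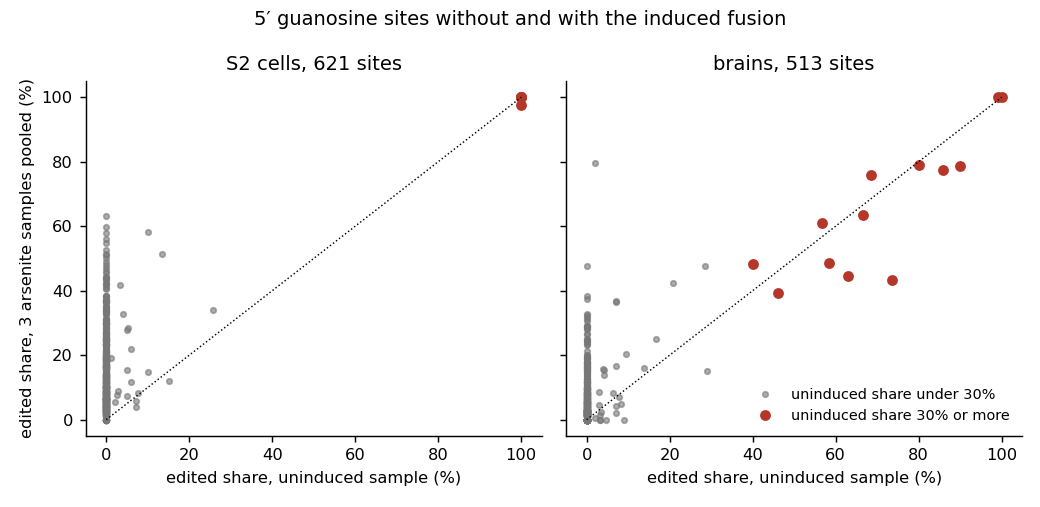
Edited share of each 5′ G site in the uninduced sample (x axis, %) against that in the 3 arsenite samples pooled (y axis, %), for sites with at least 10 and 30 reads (621 in S2 cells, 513 in brains). The dotted line marks equal shares. The red points, 5 in S2 cells and 13 in brains, were at 30% or more without induction and lie on both sides of that line in brains, while most grey points lie at 0 on the x axis and spread upwards.

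In S2 cells the 5′ G sites were edited less than other sites in every induced sample. Over the 444 5′ G sites and 8263 other sites read at least 10 times in all 7 samples, the mean edited share (guanosine reads over all reads, each site counted equally) at 5′ G sites was 5.78%, 5.88% and 5.59% in the 3 Schneider's samples and 12.8%, 12.8% and 13.5% in the 3 arsenite samples. Other sites had 7.74%, 7.74% and 7.93%, and then 16.5%, 16.4% and 16.7%. The 2 kinds of site did not overlap in either condition. The ratio of 5′ G over other sites was 0.762 on average, and the log2 ratio averaged -0.44 over the Schneider's samples (SD 0.057, n = 3) and -0.35 over the arsenite ones (SD 0.035, n = 3). It lay below 0 in 6 of 6 samples (exact sign-flip test over samples, two-sided, p = 0.03125, the smallest it can give). In the 1 uninduced sample the means had the opposite order, with 0.859% at 5′ G sites and 0.428% at other sites. The sites of mbm, CG5355 and Dp1, at 100% guanosine in that sample, are among the 444 and raise the 5′ G mean. Of sites with at least 10 reads in it, fewer 5′ G than other sites had any edited read, 4.05% against 5.73%.

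In the induced S2 samples the lower share of 5′ G sites also held inside genes. In 321 genes with both kinds of site, the 5′ G sites were 2.94 percentage points below the others (SD 0.750 over 6 samples, below 0 in 6 of 6, exact sign-flip p = 0.03125). Leaving out each site with an edited read in either uninduced sample changed this little: over 410 5′ G and 7481 other sites the ratio was 0.760 and the difference within genes -2.94 points, with the same p.

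In brains the outcome turned on the sites that were guanosine without induction. Over all 288 5′ G and 5203 other sites, the 5′ G sites had 4.68%, 5.15% and 4.69% in Schneider's and 9.10%, 7.43% and 7.03% in arsenite, against 3.77%, 4.33% and 3.34%, and 9.82%, 7.30% and 6.32%, at other sites. The uninduced sample had 2.64% at 5′ G sites and 0.508% at other sites. The ratio was 1.14, above 1 in 5 of the 6 samples (exact sign-flip p = 0.09375). With the sites that had an edited read in an uninduced sample left out, 254 5′ G sites had 2.45%, 2.46% and 1.91% in Schneider's and 7.04%, 4.85% and 4.75% in arsenite. The 4600 other sites then had 2.90%, 3.43% and 2.49%, and 8.62%, 6.28% and 5.26%. The ratio became 0.801, below 1 in 6 of 6 samples (exact sign-flip p = 0.03125), and the difference inside 189 genes was -1.105 points (SD 0.569, n = 6, exact sign-flip p = 0.03125). Leaving out the sites at 30% or more in an uninduced sample alone, an alternative added after the values were seen, gave a log2 ratio of -0.32 (exact sign-flip p = 0.03125).

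**Figure D2:**
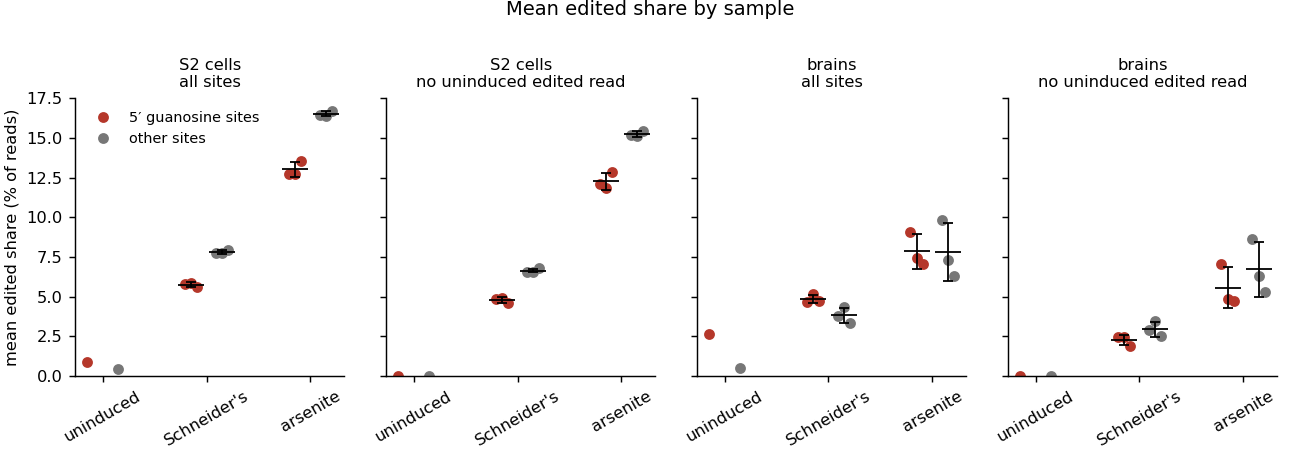
Mean edited share (y axis, % of reads) of 5′ G sites (red) and other sites (grey) in each sample, with all sites and with sites that had no edited read in an uninduced sample. Points are samples and bars the mean ± SD of 3. In S2 cells red lies below grey in both conditions, and in brains it does so once the sites edited without induction are left out.

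The tissues differed in this ratio over all sites, and not detectably once the uninduced reads were set aside. The log2 ratio was 0.58 lower in S2 cells than in brains over all sites (difference -0.58, exact permutation of tissue labels within condition, p = 0.005, the smallest it can give). Without sites with an uninduced edited read the difference was -0.076 (exact permutation p = 0.195).

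Among the 4 possible 5′ neighbours, guanosine gave the lowest mean share in both tissues and both conditions, counting sites with no uninduced edited read. In S2 cells the Schneider's samples averaged 4.78% (SD 0.179, n = 3), against 6.26% (SD 0.162) for cytidine, 6.30% (SD 0.126) for adenosine and 7.34% (SD 0.111) for thymidine, and the guanosine samples, at most 4.89%, lay below all others. In arsenite the values were 12.3% (SD 0.525), 15.1% (SD 0.163), 14.3% (SD 0.214) and 16.4% (SD 0.261) in the same order. In brains the values in Schneider's were 2.28% (SD 0.316), 2.89% (SD 0.459), 2.69% (SD 0.489) and 3.26% (SD 0.477), and neighbouring classes overlapped between samples.

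The triplets gAg, gAc, gAt and gAa were the 4 lowest of the 16 in S2 cells, counting sites with no uninduced edited read, both in Schneider's (4.93%, 4.36%, 4.41% and 4.84%) and in arsenite (12.4%, 11.7%, 13.0% and 11.3%), each with an SD of at most 0.856. Among themselves the 4 differed by less than 1 point in Schneider's. In brains gAg (171 sites) was lowest in Schneider's at 2.00% (SD 0.342), while gAc (37 sites) ranked 13 from the bottom, with samples from 2.90% to 3.81%. The 25 gAt and 21 gAa sites gave 2.71% (SD 1.28) and 2.35% (SD 0.635). In arsenite the brain values of gAa and gAg were the lowest, at 4.85% (SD 0.848) and 4.99% (SD 1.33). There gAt ranked 8 from the bottom at 6.58% (SD 2.15) and gAc 15 at 7.82% (SD 1.31). Over all sites the order was different. In S2 cells in Schneider's aAa ranked 3 from the bottom, gAc 4 and gAt 5. In brains gAa (9.89%, SD 0.888), gAc (7.39%, SD 0.253) and gAt (7.28%, SD 0.301) were then the 3 highest of the 16 in Schneider's, with 7.53%, 5.36% and 5.43% already in the uninduced sample, and gAg ranked 2 from the bottom at 3.08% (SD 0.427).

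**Figure D3:**
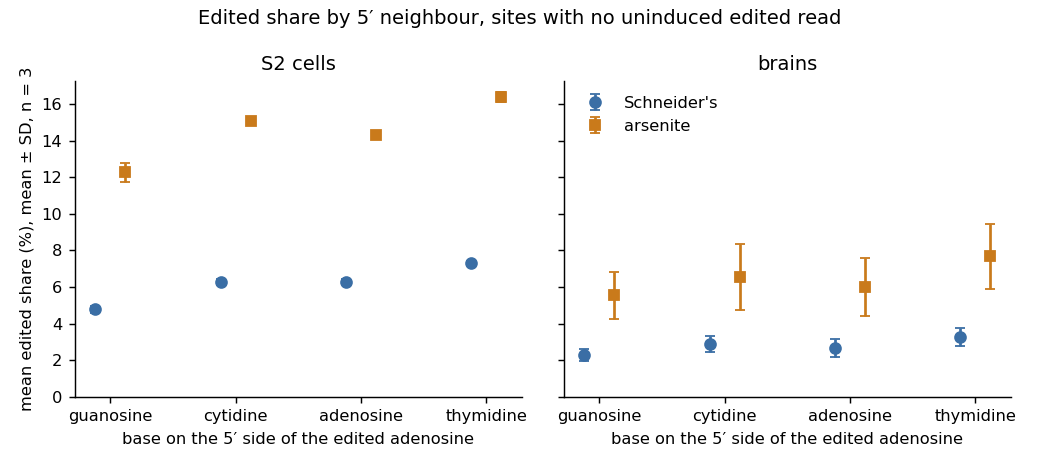
Mean edited share (y axis, %) by 5′ neighbour, in Schneider's (blue circles) and arsenite (orange squares), for sites with no uninduced edited read. Points are the mean and bars the SD of 3 samples. Guanosine is lowest in each series, at 4.78% and 12.3% in S2 cells and 2.28% and 5.55% in brains.

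The difference between 5′ G and other sites was also set out by read depth and by place in the transcript, counting sites with no uninduced edited read. In S2 cells in Schneider's the ratio of 5′ G over other sites was 0.581 in the tertile of sites with the fewest reads, 0.801 in the middle one and 0.843 in the deepest. In arsenite it was 0.734, 0.847 and 0.844. In brains the ratios lay between 0.697 and 0.912 over tertiles and conditions. At codon position 2, where most 5′ G sites lie, 243 5′ G sites had 4.49% (SD 0.274) in Schneider's and 3145 other sites 6.46% (SD 0.112). At codon position 1 the 74 5′ G sites had 5.35% (SD 0.471) and other sites 7.00% (SD 0.229), and at position 3 the 56 sites had 5.40% (SD 0.472) and others 6.78% (SD 0.201). In 5′ UTRs of S2 cells 13 5′ G sites and 423 other sites lay close together, at 2.73% (SD 0.759) and 3.08% (SD 0.220) in Schneider's and at 15.2% (SD 4.51) and 14.8% (SD 0.281) in arsenite. In 3′ UTRs of S2 cells the 20 5′ G sites were lower, at 6.18% (SD 0.596) against 8.77% (SD 0.169) in Schneider's and 10.8% (SD 0.989) against 15.0% (SD 0.216) in arsenite. In brains 3′ UTRs went the other way, with 5.24% (SD 0.160) at 11 5′ G sites and 2.63% (SD 0.558) at 229 other sites in Schneider's, and 9.18% (SD 1.06) and 4.65% (SD 1.30) in arsenite. Brain sites at codon position 2 had 1.92% (SD 0.382) at 165 5′ G sites and 2.89% (SD 0.486) at other sites in Schneider's, and in 5′ UTRs 9 5′ G sites had 2.95% (SD 2.38) and other sites 1.76% (SD 0.312).

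The edited share at 5′ G sites was higher in arsenite in both tissues. In single S2 cells, reads at sites of Fmr1 and Adar, the parts of the fusion, were also more numerous in arsenite (values below). Whether the amount of the fusion contributed to the higher shares was not tested. In S2 cells the difference was 7.27 points (2.26-fold), from 5.75% (SD 0.149, n = 3) to 13.0% (SD 0.449, n = 3), and at other sites 8.73 points (2.12-fold). In brains it was 3.01 points (1.62-fold), from 4.84% (SD 0.267) to 7.85% (samples from 7.03% to 9.10%), and at other sites 4.00 points (2.05-fold). Arsenite and Schneider's samples did not overlap in either tissue (exact permutation test, two-sided, p = 0.1 in each, the smallest that 3 against 3 allows). Without sites with an uninduced edited read the 5′ G fold was 2.57 in S2 cells and 2.44 in brains, against 2.30 and 2.28 at other sites. The change of the log2 ratio with arsenite was then 0.16 in S2 cells (exact permutation p = 0.1) and 0.097 in brains (p = 0.4), and 0.13 with both tissues together (labels permuted within tissue, p = 0.04). Over all sites the combined change was -0.12 (exact permutation p = 0.23), with 0.095 in S2 cells (p = 0.1) and -0.33 in brains (p = 0.1).

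Single 5′ G sites varied widely around these means. Among the 410 sites without uninduced edited reads in S2 cells, the median share was 2.48% (quartiles 0.624 and 6.02) in Schneider's and 8.62% (4.84 and 16.9) in arsenite, with the replicates pooled. No edited read was seen at 99 sites (24.1%) in Schneider's and at 9 (2.20%) in arsenite. Shares over 30% were seen at 3 sites and then at 31. In brains the medians were 1.22% and 3.30%, and 108 and then 42 of 254 sites had no edited read. Sites were called over merged libraries, so one without edited reads in a condition is in the set through reads of other samples. The numbers of sites without edited reads are therefore partly set by the selection.

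Site by site, the edited share was tested with limma (two-sided, p under 0.01, at least 10 reads in each of the 6 induced samples) over all A-to-G sites. Of 464 5′ G sites tested in S2 cells, 48 (10.3%) were called higher in arsenite and 0 lower. Of all 9117 sites tested, 16.4% were called higher and 0.0439% lower. At an unadjusted p under 0.05, 124 5′ G sites (26.7%) were higher and 1 lower, against 33.5% and 0.285% of all sites. A quasi-binomial model of the reads called 57 higher and 1 lower, beside 16.7% of all sites higher. Leaving out a Schneider's replicate took the 48 down to 27 (replicate 1), 30 (replicate 2) or 25 (replicate 3). The share of all sites called in these fits is not given here. At an adjusted p under 0.05 (limma, Benjamini-Hochberg over all sites tested) 38 5′ G sites were called, against 13.2% of all sites. In 154 (33.2%) every arsenite replicate was above every Schneider's replicate, compared with 38.8% of all sites. The median difference was 5.82 points at 5′ G sites and 7.17 at other sites, and 419 (90.3%) of the 5′ G sites had a higher mean in arsenite, near the 89.4% of other sites. Sites had to have an edited read in an induced sample to be tested, which 6 5′ G sites of S2 cells and 33 of brains with enough reads did not.

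**Figure D4:**
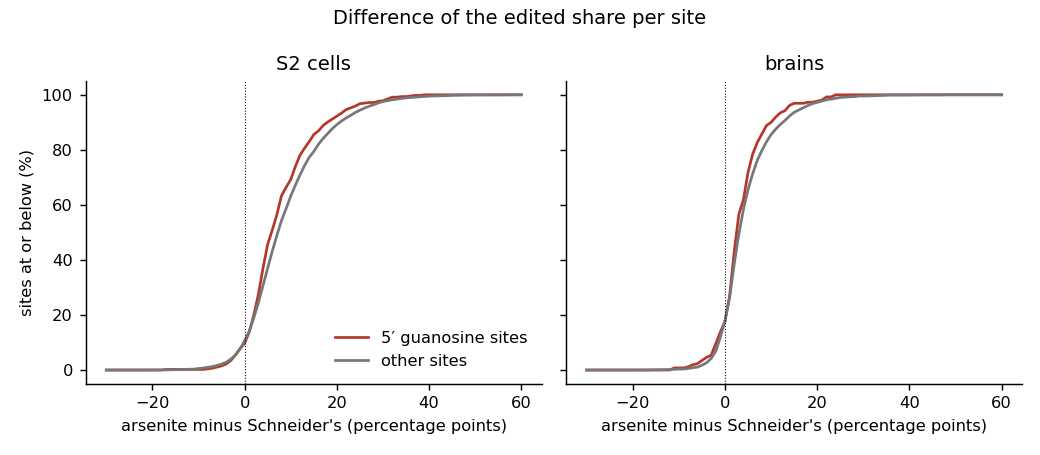
Cumulative share of sites (y axis, %) by the difference of the mean edited share, arsenite minus Schneider's (x axis, percentage points), for 5′ G sites (red) and other sites (grey). In S2 cells the curves cross repeatedly below 2 points, with 9.70% of 5′ G sites and 10.6% of other sites at 0 or below, and from 2 points upward red lies to the left of grey or meets it, with medians of 5.82 and 7.17 points. In brains the medians were 2.38 and 3.03 points.

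The 7 5′ G sites of S2 cells with the largest called rises, among those with 20 reads in each induced sample, lay in 6 genes. They were picked among sites with no edited read in uninduced S2 cells and no overlap between arsenite and Schneider's replicates. Both traits were set by the choice and are not results. CG31705 (2L, position 11525430, gAg, codon position 3) had edited 15 of 40, 4 of 28 and 8 of 40 reads under Schneider's and 22 of 32, 23 of 41 and 19 of 34 under arsenite. This is a rise of 36.3 points (SE 6.83, limma adjusted p = 0.025). Another edited adenosine lies 4 bases away from it, with a thymidine on its 5′ side, and differed there by 12.5 points (limma adjusted p = 0.22).

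Hsc70Cb encodes a large Hsp70-family co-chaperone. Its site (3L, position 14040215, gAc, codon position 2) had 0 of 39, 1 of 39 and 3 of 45 edited reads in Schneider's and 14 of 35, 19 of 46 and 11 of 38 in arsenite. The rise was 33.7 points (SE 4.09, adjusted p = 0.013), and the site of the same gene 48 bases away rose by 43.6 points (adjusted p = 0.015).

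pzg encodes Putzig, a chromatin-associated protein. Its site in the 5′ UTR (3L, position 21286248, gAg) went from 2 of 41, 0 of 24 and 0 of 36 edited reads to 8 of 34, 9 of 26 and 9 of 24, a rise of 30.3 points (SE 4.22, adjusted p = 0.014). The 2 sites of Pi3K21B, the regulatory subunit of phosphoinositide 3-kinase, lay 6 bases apart (2L, positions 299688 and 299694, both gAg at codon position 3) and can share reads, so they are not independent of each other. At the second of them 1 of 21, 0 of 23 and 0 of 22 reads became 9 of 29, 10 of 26 and 7 of 29, a rise of 29.6 points (SE 4.13, adjusted p = 0.014).

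The transcription factor gene ap (apterous, 2R, position 5708067, codon position 1) went from 3 of 48, 4 of 55 and 0 of 41 to 15 of 48, 17 of 50 and 17 of 51 edited reads, a rise of 28.4 points (SE 2.90, adjusted p = 0.0096). The arsenite samples lay within 31.2% and 34.0%. The neighbour of this site, 7 bases away, stayed under 5% in all 6 samples, with a difference of 2.13 points (limma adjusted p = 0.53). Lon, a mitochondrial protease (3L, position 19608487, gAg), rose from 11.4% (SD 2.80, n = 3) to 35.6% (SD 5.85, limma adjusted p = 0.016).

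**Figure D5:**
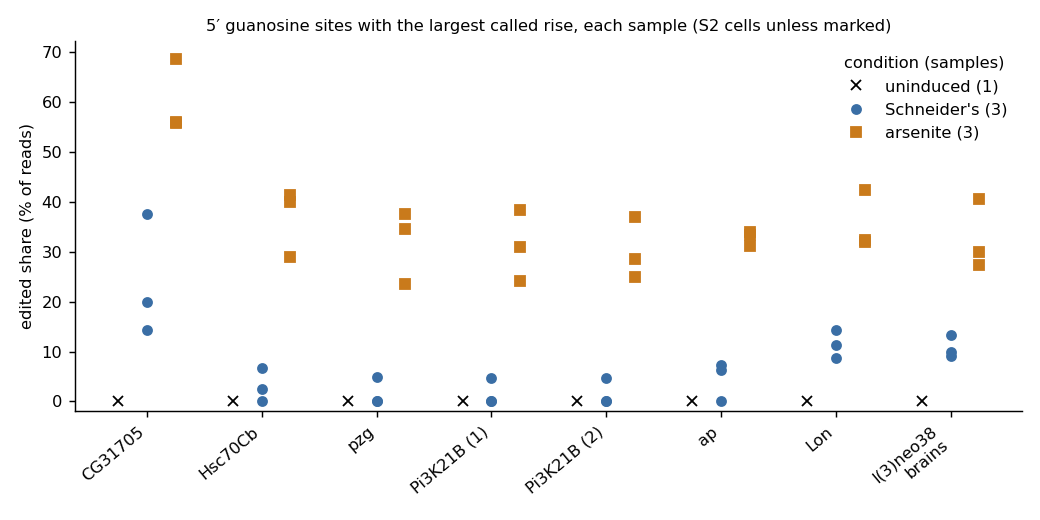
Edited share (y axis, % of reads) at the 7 sites of S2 cells and the 1 of brains with the largest called rises, in the uninduced sample (black crosses), the 3 Schneider's (blue circles) and the 3 arsenite samples (orange squares). By the rule that picked these sites, all orange squares lie above all blue circles of the same site and every cross is at 0.

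Some 5′ G sites were edited strongly in Schneider's. Besides CG31705, the highest shares in Schneider's among S2 sites with 20 reads in each induced sample and no edited read without induction were those of His3.3B, a gene of the histone variant H3.3 (X, position 9153485, gAc, 3′ UTR), AP-1mu, a clathrin adaptor subunit (3R, position 9558040, gAg), and vig, a gene of the RNA interference machinery (2L, position 15064414, gAg, 3′ UTR). His3.3B had 13 of 48, 6 of 26 and 11 of 26 edited reads in Schneider's and 7 of 34, 7 of 23 and 5 of 34 in arsenite, a difference of -8.91 points (SE 6.28, limma adjusted p = 0.34). AP-1mu had 28.6% (SD 5.31) and 40.6% (SD 13.2), and vig 24.4% (SD 8.39) and 43.5% (SD 7.21), with limma adjusted p of 0.26 and 0.067. None of the 3 passed the calling threshold, an unadjusted limma p under 0.01. The vig site passed it under 6 alternative settings and not under 8, and AP-1mu under 1 and not under 13. Replicates of these sites spread by 10 points or more.

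The same sites were read again in single S2 cells, 96 wells per condition on each of 2 plates, which are other libraries of the same line. Of the 1620 5′ G sites, 1129 were found in the single-cell table, and 853 had at least 10 reads on each plate and condition. With reads summed over wells, the mean edited share was 6.37% and 6.18% in Schneider's on plates 1 and 2 and 13.8% and 13.1% in arsenite. Other sites had 8.23% and 7.29%, and 16.9% and 16.4%. The ratio of 5′ G over other sites lay between 0.775 and 0.847 in the 4 combinations, each below 1. Plates are only 2, so no test was made.

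Of the 48 sites called in bulk, 44 had at least 10 reads on each plate and condition, and 37 (84.1%) were higher in arsenite on both plates. Among all sites called in bulk this was 79.4%, and among all tested 65.1%. Hsc70Cb had 7 of 140 and 4 of 117 edited reads in the Schneider's wells of plates 1 and 2 and 31 of 140 and 26 of 148 in the arsenite wells. The ap site had 6 of 97 and 1 of 90, and then 26 of 88 and 20 of 80. Lon did not follow, with 5 of 51 and 3 of 31, and then 5 of 34 and 1 of 33.

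In brains 7 of 260 5′ G sites tested (2.69%) were called higher in arsenite and 1 lower, against 6.18% and 0.139% of all 5018 sites. None passed an adjusted p under 0.05 in limma, where 0.717% of all sites did. At an unadjusted p under 0.05, 26 of the 260 were higher and 2 lower, against 15.4% and 0.399% of all sites. With a quasi-binomial model of the reads 12 were called higher, beside 7.39% of all sites. Without arsenite replicate 3 the number called higher was 18, for which the share of all sites is not given here. In 34 (13.1%) all arsenite replicates lay above all Schneider's replicates, compared with 17.2% of all sites, and 214 (82.3%) had a higher mean in arsenite, near the 82.0% of other sites.

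A single brain site met the conditions for naming by its rise, in the 3′ UTR of l(3)neo38 (3R, position 11768711, gAg). It had 0 of 30 edited reads uninduced, 4 of 30, 3 of 30 and 3 of 33 under Schneider's, and 13 of 32, 9 of 33 and 9 of 30 under arsenite. The rise was 21.8 points (SE 3.77, limma adjusted p = 0.067). A neighbour 28 bases away had an edited read in 1 of the 6 samples. The other 6 called sites, named here after their values were seen, lay in Inx2 (a gap junction protein), dco (casein kinase 1), cg and jing (zinc finger factors), PR-Set7 (a histone H4 methyltransferase) and aop (an ETS repressor). Inx2 (X, position 6999298, gAc) went from 17.5% (SD 3.37, n = 3) to 38.2% (SD 4.85) and PR-Set7 (3R, position 14316674, gAg) from 5.33% (SD 4.65) to 26.9% (SD 9.11). The aop site (2L, position 2159682, gAg) was called in both tissues, with 5.56% (SD 0.987) and 22.7% (SD 5.11) in S2 cells and 2.22% (SD 3.85) and 21.7% (SD 10.5) in brains. The single site called lower was in the non-coding RNA CR45926 (2R, position 23906492), at 54.8% (SD 3.57) in Schneider's and 43.2% (SD 3.09) in arsenite, and it had 28 of 38 edited reads without induction.

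Among brain sites with 20 reads in each induced sample and no edited read without induction, the highest shares in Schneider's were l(3)neo38 at 10.8% (SD 2.23), Hrb98DE, an hnRNP gene, at 10.2% (SD 3.37), hdc (headcase) at 7.24% (SD 3.77) and Uba1, the ubiquitin-activating enzyme, at 6.67% (SD 2.89). The arsenite values of the last 3 were 17.4%, 9.13% and 14.4%, with limma adjusted p of 0.34, 0.72 and 0.16. A site outside the naming rule, picked after its values were seen, was far above these. In the non-coding RNA CR43283 (3R, position 11254408, gAg) 1 of 51 reads was edited without induction, 48 of 79, 34 of 42 and 53 of 58 in Schneider's, and 71 of 88, 72 of 94 and 77 of 94 in arsenite. Its share was thus 77.7% (SD 15.6) in Schneider's and 79.7% (SD 2.78) in arsenite, with hardly a read in S2 cells. The other 2 tested 5′ G sites of CR43283 were at 2.15% (SD 0.896) and 0 in Schneider's. In puf, a gene of a ubiquitin-specific protease (3R, position 24636744, gAg), also chosen after its values were seen, 11 of 13, 11 of 13 and 5 of 10 S2 reads were edited in Schneider's and 11 of 11, 4 of 6 and 3 of 6 in arsenite, with 1 of 13 uninduced. In brains these were 5 of 12, 2 of 13 and 5 of 12, and 10 of 19, 2 of 10 and 2 of 9, with 1 of 14 uninduced.

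Most genes held a single 5′ G site. Of the 1138 genes, 828 had 1, 204 had 2 and 106 had 3 or more. The highest numbers were 8 in poe, a calmodulin-binding ubiquitin ligase, 7 in LanA, the laminin A chain, and 6 each in Acon, the aconitase of the citric acid cycle, and beta-Spec, the membrane skeleton protein beta-spectrin. Next came 8 genes with 5, of which ApepP, an aminopeptidase, had the fewest edited sites in all (5 of 13). With reads pooled over the sites of a gene, 5′ G sites of S2 cells in Schneider's were below other sites of the gene in poe, 11.1% (SD 3.19, n = 3) against 19.2% (SD 1.80), and in Acon, 5.43% (SD 3.66) against 12.6% (SD 2.36). In beta-Spec, 13.6% (SD 3.61) and 15.5% (SD 1.15), and ApepP, 2.85% (SD 0.722) and 4.90% (SD 1.66), the samples were closer together. LanA went the other way, with 22.0% (SD 4.80) at 5′ G sites and 9.62% (SD 1.11) at others in Schneider's, and 26.8% (SD 7.50) and 16.4% (SD 0.485) in arsenite.

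Of 18 genes looked up because the study names them or because they encode the parts of the fusion, 6 held 12 5′ G sites, namely Src42A, Khc, pzg, wdn, Fmr1 and Adar. Src42A, a tyrosine kinase (2R, position 5982689), went in S2 cells from 1 of 12, 1 of 14 and 0 of 17 edited reads to 6 of 13, 5 of 11 and 3 of 16, a rise of 31.6 points (SE 7.74, limma adjusted p = 0.046). A further site of pzg (3L, position 21287545, gAg) had 23.9% (SD 15.1) and 59.5% (SD 19.4), with an adjusted p of 0.085 (limma). The 2 sites of Khc, the kinesin heavy chain, had no edited read in Schneider's in S2 cells and 2 of 46 and 7 of 48 in arsenite, with adjusted p of 0.34 and 0.22. The site of Fmr1 (3R, position 10104468, gAc) had 1 of 136 S2 reads edited in Schneider's and 11 of 316 in arsenite. The 3 tested sites of Adar (X) differed by -2.52, 0.55 and 0.75 points (limma adjusted p of 0.54, 0.89 and 0.82). Reads of Fmr1 and Adar can come from the fusion as well as from the endogenous gene, and these cannot be told apart. In single S2 cells the Fmr1 site had 243 and 277 reads in the arsenite wells of plates 1 and 2. The Schneider's wells had 79 and 54. The Adar site at position 1780748 had 219 and 227 in arsenite, and 53 and 38 in Schneider's.

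The share of 5′ G sites was near that of all genes in 5 gene families and higher in known neuronal ADAR targets, with no test made. The 7 sites of these targets lay in Adar, Atpalpha, Sh and Shab. They include the 3 tested sites of Adar, whose reads can come from the fusion. Ribosomal protein genes had 3 among 72 sites (4.17%), mitochondrial ribosomal protein genes 3 of 74 (4.05%), translation factors eIF and eEF 12 of 311 (3.86%), chaperones 10 of 206 (4.85%), actins and tubulins 2 of 47 (4.26%), and 10 known neuronal ADAR targets 7 of 78 (8.97%), all beside 4.93% over all genes. In S2 cells 2 of 10 tested chaperone sites were called higher in arsenite, those in Hsc70Cb and CCT7, with a median difference of 3.55 points over the 10. This is near the 16.4% of all sites called higher. None of the 8 tested sites of translation factors, the 3 of mitochondrial ribosomal proteins, the 2 of ribosomal proteins, the 1 of actins and tubulins or the 5 of neuronal ADAR targets was called, numbers too small to set against that share. In brains none of the tested sites of ribosomal proteins (2), translation factors (4), chaperones (7) and ADAR targets (2) was called, where 6.18% of all sites were called higher.

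Arsenite effects were compared between tissues at the 183 5′ G sites read in all 12 induced samples. In 3 of them the rise was larger in S2 cells at an adjusted p under 0.05 (limma contrast), beside 1.4% of all 3426 sites, and in 0 it was larger in brains, beside 0.0292%. At an unadjusted p under 0.05, 31 of the 183 (16.9%) differed between tissues, near the 17.7% of all sites. The 3 were Hsc70Cb, with 33.7 points in S2 cells and 4.28 in brains, and both sites of Pi3K21B, with 28.6 and 29.6 points in S2 cells and 2.08 and 0.42 in brains. This count ranged from 0 to 9 with each replicate left out, and it was 0 without Schneider's replicates 1 or 2 of either tissue or without arsenite replicate 3 of brains. Without Schneider's replicate 3 it was 1 in each tissue, and without an arsenite replicate of S2 cells 6 to 9. The share of all sites called in these fits is not given here, so these counts cannot be set against other sites.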

How the data were processed

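RNA of bulk S2 cells and dissociated L3 brains and of single S2 cells was read by VASA-seq, which is strand-specific, full-length and counts unique molecules. Per the labels and the study's methods, the authors trimmed reads with cutadapt 3.2, removed ribosomal RNA with BWA 0.7.17-r1188, mapped unique reads to BDGP6 with STARsolo 2.7.7a, collapsed molecules with UMI-tools 1.1.1 and called variants in exons with GATK 4.1.9.0 over merged libraries. Sites are therefore called where any library was edited, and positions without edits are not in the table. The authors deposited reads per base and strand at each variant, used here as they are, and a table of edited fractions per gene, which served only to check the recomputed shares: 4998 of 5003 gene means were equal within 1e-06. Deposited tables of the authors' own comparisons hold p-values and scores and were not used. Of the libraries with variant calls, 10 carry no sample label and were not used.

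Bases around a variant are given on the genome's plus strand, so records of minus-strand genes were reverse-complemented before the rule was applied. Of 160065 single-base records, 34987 were A-to-G in transcript direction and 32873 met the limits of quality and share. Regions and codons came from Ensembl 115 for BDGP6.

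The edited share of a site was guanosine reads over reference and guanosine reads. Means required 10 reads in all 7 samples of a tissue, which is a choice on depth and not on editing, and tests per site 10 reads in the 6 induced samples and at least 1 edited read. Levels were compared with exact permutation or sign-flip tests, and sites with limma 3.58.1 in R 4.3.3 on the shares (p under 0.01), with p-values adjusted over all A-to-G sites of a tissue. On simulated reads with S2 depths (9117 sites) limma found 71 of 100 sites changed by 30 points and 13 of 100 changed by 10 points, and with brain depths (5018 sites) 77 and 27. The simulated reads held counting error only and no spread between replicates, so these numbers can be too high for the real samples. Named sites were, per tissue and among 5′ G sites with 20 reads in each induced sample and none edited uninduced, the 8 largest called rises without overlap of replicates (1 is not reported here), up to 3 called falls (none met this) and the 4 highest shares in Schneider's. Further named were the 3 with the most edited reads uninduced, the 5 genes with the most 5′ G sites, and sites in genes the study names. Members and gene lists were chosen with earlier results of these data known. Alternatives were other read minimums, call qualities, tests and pooled reads, sites edited without induction left out, a replicate block and each replicate left out.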

Additional observations from a re-analysis of the deposited data

Results flagged for a closer look

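A test of the difference between tissues found 4 results. The arsenite effect at the Hsc70Cb site was 29.4 percentage points larger in S2 cells than in brains, and at the 2 Pi3K21B sites it was 26.5 and 29.2 points larger (limma adjusted p of 0.021, 0.021 and 0.023). These 3 sites are 1.64% of the 183 5′ G sites tested, near the 1.4% of all 3426 sites. The 2 Pi3K21B sites can share reads and are not independent. The log2 ratio of 5′ G over other sites was lower in S2 cells than in brains by -0.58 (exact permutation p = 0.005), and by -0.076 (exact permutation p = 0.195) without the sites that had an edited read in an uninduced sample. Samples in groups of 3 are too few for a check of single samples that stand apart. Tissue, culture and promoter cannot be told apart in these differences.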

How the results depend on the processing

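In S2 cells the lower share at 5′ G sites kept its direction under every alternative run. The log2 ratio was -0.41 to -0.37 with each replicate left out (exact sign-flip p = 0.0625, the smallest that 5 samples allow), and the difference within genes was -3.10 to -2.79 points. With the replicate number as a replicate block these were -0.39 and -2.94 (exact p = 0.25, the smallest that 3 pairs allow), and the tissue difference was -0.58 (exact permutation p = 0.1). Deviations of same-numbered samples correlated at -0.018 to 0.056, so the numbers were not taken as pairs. In brains the log2 ratio was 0.42 with all reads pooled and 0.67 with a minimum of 20 reads, but -0.13 with 5 reads, -0.32 without sites with an uninduced edited read and -0.32 without those at 30% or more. The last setting, here and below, was added after the values were seen. The difference within genes of brains was 0.845 points with 20 reads, -1.32 with 5 reads, -1.105 without sites with an uninduced edited read and -1.37 without those at 30%. The change with arsenite in brains was 0.097 and 0.0015 in the latter 2 settings, and the tissue difference -0.076 in the first of them. Why read minimums move the brain values was not tested.

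Called sites of S2 cells numbered 81 with 5 reads, 25 with 20 reads and 25 to 60 with a replicate left out. In brains they numbered 19 with 5 reads, 4 with 20, 12 with the quasi-binomial model, 3 with all 12 induced samples in 1 fit, 0 at an adjusted p under 0.05, and 5 to 18 with a replicate left out. Sites with a larger effect in S2 cells than in brains numbered 0 to 9 with a replicate left out. The number of sites tested changes with the read minimum. The shares of all sites called with other read minimums or with a replicate left out are not given here. These counts therefore cannot be compared as shares. The share of sites with a 5′ guanosine was 5.21% with no limit on quality, 4.51% above 1000, 4.08% above 2000, and 5.18% with at least 100 reads. For the named sites, 193 comparisons with an alternative left the side of the threshold as it was, 9 passed it newly and none reversed. An adjusted p under 0.05 was not counted among these alternatives, and the l(3)neo38 site of brains was not called at it. A count model with a term per sample was not run. With a median of 5 to 11 reads per site, changes of 10 points at a single site were mostly missed on simulated reads.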
